A study of Homo sapiens with 22 samples.

Results

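The heat shock chaperones described here are 10 genes: HSPA8, HSPA1A, HSPA1B, HSPH1, DNAJB1, HSP90AA1, HSP90AB1, HSPD1, HSPE1 and HSPB1. They were matched by gene symbol in each of 4 expression tables, and all 10 were found in all 4. The 4 tables together list 60857 gene symbols, of which 13681 occur in every table. The genes were chosen by their measured differences between treated and control libraries in these same tables. Those differences, and the calls that the fits over all genes gave for them, are therefore a description. They are not evidence for a change in these genes.

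The study sequenced RNA from HN-6 cells, which derive from a squamous carcinoma of the human head and neck, in 22 libraries. Interferon-β, 1000 U/ml over 24 h, was given to the cells of every library, and no group without it was measured. Depletion of SMYD3, which methylates lysines in proteins, took 3 forms: the knockout clone 5-3 against parental HN-6 (3 libraries each), the siRNA si1SMYD3 for 72 h against a negative control siRNA, siNC (3 each), and the antisense oligonucleotide ASO081 for 72 h against phosphate-buffered saline, PBS (2 each). UHRF1, which guides maintenance DNA methylation, was depleted with siUHRF1 for 72 h against its own siNC libraries (3 each). The knockout is 1 clone, each siRNA target was reached with 1 reagent, and the control for the ASO was buffer and not a control oligonucleotide. No control library was shared between comparisons.

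Heat shock chaperones bind unfolded or partly folded proteins and keep them from aggregating. HSP70 proteins bind and release substrates in an ATP cycle that J-domain proteins start and exchange factors close, and HSP90 proteins take over kinases, receptors and other clients for their final folding. Mitochondria hold their own chaperonin, a barrel of HSPD1 capped by HSPE1. When unfolded protein accumulates, the transcription factor HSF1 binds heat shock elements, inverted repeats of a short GAA unit, upstream of many of these genes. Cancer cells often carry high levels of several of them.

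The letters upstream of the 10 genes are shown first. They were not among the values used to choose the genes. Heat shock elements are known upstream of many heat shock chaperones, so matches here are only a description. RefSeq promoter windows on GRCh38.p14 run from 250 bases before to 50 bases after a transcript start, and the 10 genes have 16 such windows. The 3-unit heat shock element was searched as GAANNTTCNNGAA and TTCNNGAANNTTC, each of which is the reverse complement of the other, so that both strands were covered. Either form occurred in 172 of 35116 RefSeq windows, or 0.490%. Such a match occurred in 4 of the 16 windows, 1 window for each of 4 of the 10 genes. Of these genes HSPA8 had 1 window, HSP90AA1 and HSPD1 had 2 each and HSP90AB1 had 3. Their matches are printed 5′ to 3′ on the gene's strand with the match in capitals and bases counted back from the transcript start. The stretches are chr11:123062345-123062374 and chr11:123062170-123062199 (minus strand) for HSPA8, chr14:102087111-102087140 (minus) for HSP90AA1, chr6:44247770-44247799 and chr6:44247823-44247852 (plus) for HSP90AB1, and chr2:197500061-197500090 (minus) for HSPD1.
HSPA8, bases -230 to -218: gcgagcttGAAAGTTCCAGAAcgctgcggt
HSPA8, bases -55 to -43: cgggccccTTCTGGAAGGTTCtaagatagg
HSP90AA1, bases -88 to -76: gagggttcTTCCGGAAGGTTCgggaggctt
HSP90AB1, bases -165 to -153: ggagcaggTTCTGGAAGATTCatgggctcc
HSP90AB1, bases -112 to -100: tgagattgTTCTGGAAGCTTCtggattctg
HSPD1, bases -245 to -228: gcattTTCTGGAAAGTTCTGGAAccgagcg
The second HSPA8 match and those of HSP90AA1 and HSPD1 lie before the RefSeq start used here but inside an untranslated exon of another transcript in GENCODE 29. In HSPD1 2 matches overlap and share the GAA and TTC units in the middle.

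Another 4 genes had no 3-unit match in any window but had the 2-unit form GAANNTTC, which reads the same on both strands and occurred in 6.77% of all RefSeq windows. It is contained in every 3-unit match. HSPA1A, HSPA1B and HSPB1 had 1 window each, and DNAJB1 had 3. The stretches are chr6:31815426-31815455 (plus strand) for HSPA1A, chr6:31827622-31827651 (plus) for HSPA1B, chr19:14518456-14518485 and chr19:14518426-14518455 (minus) for DNAJB1 and chr7:76302480-76302509 (plus) for HSPB1.
HSPA1A, bases -106 to -99: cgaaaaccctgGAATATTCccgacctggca
HSPA1B, bases -105 to -98: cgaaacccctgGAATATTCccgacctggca
DNAJB1, bases -77 to -70: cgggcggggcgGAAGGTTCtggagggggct
DNAJB1, bases -47 to -40: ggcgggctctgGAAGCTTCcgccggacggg
HSPB1, bases -182 to -175: ccttaacgagaGAAGGTTCcagatgagggc
The other 2-unit form, TTCNNGAA, occurred in 7.74% of windows. HSPH1 and HSPE1 had neither a 3-unit nor a 2-unit match in their windows. The HSPE1 window begins at chr2:197500129 on the plus strand. The HSPD1 stretch printed above, which ends at chr2:197500090, lies just upstream of it and outside it. A match describes letters and does not show binding, and these windows do not reach distant elements.

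HSPA1A and HSPA1B are near-identical neighbours, and the stretches before them are printed to show how far the likeness runs. The 250 bases upstream of their starts matched at 235 of 249 aligned bases, or 94.4%. Both hold the same 2-unit element, and both hold TATAAA, which begins 30 bases before the start in HSPA1A and 29 bases before it in HSPA1B. The part shown is chr6:31815293-31815463 for HSPA1A and chr6:31827488-31827734 for HSPA1B, both on the plus strand, with bases of annotated untranslated exon left out.
HSPA1A: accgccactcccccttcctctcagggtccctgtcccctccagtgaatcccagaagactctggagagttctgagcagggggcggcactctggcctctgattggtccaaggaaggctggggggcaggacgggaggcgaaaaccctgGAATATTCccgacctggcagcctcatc
HSPA1B: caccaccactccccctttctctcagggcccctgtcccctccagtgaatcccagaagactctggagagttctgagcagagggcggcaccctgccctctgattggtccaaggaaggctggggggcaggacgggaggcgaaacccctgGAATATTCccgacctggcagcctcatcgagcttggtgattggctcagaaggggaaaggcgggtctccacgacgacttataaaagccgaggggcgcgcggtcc

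Libraries held from 24783605 to 62921144 reads in genes. SMYD3 averaged 321.9 normalized counts in parental libraries and 93.6 in the clone, and it was 5.30-fold lower with si1SMYD3 and 5.77-fold lower with ASO081. UHRF1 averaged 64.5 CPM (read counts scaled to a common library size with TMM factors) in its siNC libraries and 2.22 CPM with siUHRF1. UHRF1 also averaged 9.83 CPM in siNC and 3.05 CPM in si1SMYD3 libraries. In the other SMYD3 depletions UHRF1 was higher than in the controls. It averaged 4212 normalized counts in parental and 5718 in clone libraries, and 45.8 CPM in PBS and 58.6 CPM in ASO081 libraries. SMYD3 averaged 12.5 CPM in siNC and 8.40 CPM in siUHRF1 libraries. All 8 squamous markers had lines in every table, and 7 or 8 of them reached a mean of 1 CPM over the libraries of each table. MS4A1 of the leukocyte list was at 0 or without a line throughout, and 2 of the 5 genes of that list reached that mean in each table. Squamous markers summed to 899.8 to 937 CPM in parental and 1437 to 1499 in clone libraries, and to 832 to 876 CPM in siNC and 1402 to 1412 in siUHRF1 libraries. With siUHRF1 the leukocyte sum was 10.4 to 11.9 CPM against 2.71 to 3.76 in siNC, and the endothelial sum 22.6 to 23.8 CPM against 8.12 to 8.93. Fibroblast markers, of which 3 of 6 reached a mean of 1 CPM over each table, summed to 59.0 to 63.3 CPM in parental libraries and 15.8 to 17.8 in the clone. They summed to 135 to 158 CPM in siNC and 221 to 263 CPM in si1SMYD3 libraries, and to 119 to 120 CPM in siNC and 504 to 578 CPM in siUHRF1 libraries. Mitochondrially encoded genes took 15.0% to 15.7% of reads in parental libraries and 4.82% to 4.88% in the clone. The part of these differences in the chaperone values was not tested.

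HSPA8 (chr11:123057489-123063230, minus strand, 9 exons, merged over transcripts, in the deposited hg38 annotation) encodes the constitutive cytosolic HSP70, which folds new proteins, uncoats clathrin vesicles and feeds chaperone-mediated autophagy. It had the widest separation of the 10 genes in the knockout. The parental libraries held 9403, 10641 and 9942 normalized counts, that is, reads divided by 1 factor per library, and the clone held 89712, 89075 and 87605.5. The clone libraries lay close together, far above every parental library, at a ratio of means of 8.88 and a log2 difference of 3.15 ± 0.04 (standard error of the fit, SE). In the SMYD3 siRNA table, in CPM, the siNC libraries held 658, 644 and 635 CPM and the si1SMYD3 libraries 847, 904 and 897 CPM. Those groups did not overlap either, with a log2 difference of 0.45 ± 0.08 (SE). PBS libraries held 771 and 852 CPM and ASO081 libraries 1164 and 1443 CPM, a log2 difference of 0.68 ± 0.09 (SE). HSPA8 was the one gene of the 10 whose treated libraries all lay above every control library in all 3 SMYD3 depletions. With siUHRF1 the direction was the opposite: siNC held 1739, 1701 and 1701 CPM, and siUHRF1 held 1520.5, 1477 and 1463 CPM, all lower, at -0.20 ± 0.05 (SE) on the log2 scale. In bulk RNA, fewer cells making a transcript and less transcript per cell cannot be told apart.

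HSPA1A (chr6:31815464-31817946, plus strand, 1 exon) and HSPA1B (chr6:31827738-31830254, plus strand, 1 exon) encode the stress-inducible HSP70, and their 5′ ends lie 12274 bases apart. In the knockout table HSPA1A held 19323, 19591 and 20918 normalized counts in parental and 22809, 21500 and 23351 in clone libraries, slightly more in every clone library than in any parental one. Its log2 difference was 0.18 ± 0.04 (SE) there. The value was -0.10 with upper quartile scaling and -0.19 without mitochondrial genes. For the knockout, the first setting used edgeR on whole reads recovered from the normalized counts. The second used limma on those reads, rescaled to each library's total after mitochondrial genes were removed. In these settings the median of all genes moved from -0.02 to -0.30 and -0.38. Relative to that median HSPA1A stood at 0.19 to 0.20 each time. HSPA1B held 9143, 9078 and 9386 normalized counts in parental libraries and 15749.7, 14551 and 15658 in the clone, which is 0.73 ± 0.04 (SE) on the log2 scale. HSPA1A reads per HSPA1B read were 2.17 ± 0.06 (SD, n = 3) in parental cells and 1.47 ± 0.02 in the clone.

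In the other tables the pair differed little. HSPA1A held 174, 179 and 176 CPM in siNC and 149.7, 163 and 174 in si1SMYD3 libraries, and HSPA1B 173, 173 and 161 against 169, 177 and 188 CPM. The log2 differences were -0.12 ± 0.08 for HSPA1A and 0.08 ± 0.08 for HSPA1B (SE), and neither was called. With the ASO both were above PBS in every library: HSPA1A went from 146 and 148 to 176 and 187 CPM, and HSPA1B from 112 and 95.7 to 127 and 122 CPM. The HSPA1B call there was lost without PBS replicate 2. With siUHRF1, HSPA1A held 127, 113 and 107 CPM against 119, 112 and 113 in siNC, overlapping values with a log2 difference of 0.01 ± 0.05 (SE). HSPA1B held 73.9, 64.8 and 73.9 CPM against 60.3, 63.7 and 63.0, a log2 difference of 0.19 ± 0.05 (SE). Of the 50-base windows of HSPA1A transcripts, 71.3% also occur in HSPA1B, so the division of reads between them depends on how the authors' counting treated shared reads, which is not given in the sources used here. Summed to 1 gene, the pair differed by 0.38 in the knockout, -0.02 with si1SMYD3, 0.29 with ASO081 and 0.07 with siUHRF1, on the log2 scale, so that HSPA1B's call with siUHRF1 was lost.

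HSPH1 and DNAJB1 work on the HSP70 cycle. HSPH1 (chr13:31134974-31162388, minus strand, 17 exons) encodes HSP110, which exchanges nucleotide on HSP70 and helps it to dissolve aggregates. Parental libraries held 4964, 5349.8 and 5009 normalized counts of HSPH1 and clone libraries 12651, 12778 and 12259, with a ratio of means of 2.46. ASO081 libraries held 232 and 251 CPM against 177 and 179 CPM in PBS. In the siRNA tables HSPH1 was slightly lower in each treated library: 124, 116 and 127 CPM against 128, 128 and 135 for SMYD3, and 231, 221 and 219 against 254, 246 and 259 for UHRF1. The log2 differences were 1.30 ± 0.04 in the knockout, 0.44 ± 0.06 with the ASO, -0.09 ± 0.07 with si1SMYD3, which was not called, and -0.18 ± 0.05 with siUHRF1 (SE).

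DNAJB1 (chr19:14514769-14529770, minus strand, 8 exons) encodes the J-domain protein HSP40, which brings substrates to HSP70 and starts its ATP hydrolysis. It held 3339, 3394 and 3197 normalized counts in parental and 5305, 5077 and 5226 in clone libraries, a log2 difference of 0.65 ± 0.04 (SE). The si1SMYD3 libraries lay among their controls at 188, 187 and 195 CPM against 186, 194 and 193. ASO081 libraries held 215 and 220.2 CPM against 184 and 184 in PBS, and siUHRF1 libraries 101, 104 and 107 against 132, 123 and 126. Set against HSPA8, DNAJB1 reads per HSPA8 read went from 0.332 ± 0.020 (SD, n = 3) in parental cells to 0.0586 ± 0.0014 in the clone, and HSPH1 reads per HSPA8 read from 0.512 ± 0.014 to 0.141 ± 0.002. Both ratios were also lower in every si1SMYD3 and ASO081 library than in any of their controls, and with siUHRF1 the HSPH1 ratio was 0.151 against 0.148 in siNC, and the DNAJB1 ratio 0.0701 ± 0.0034 (SD, n = 3) against 0.0742 ± 0.0019, with overlapping libraries for both.

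**Figure D1:**
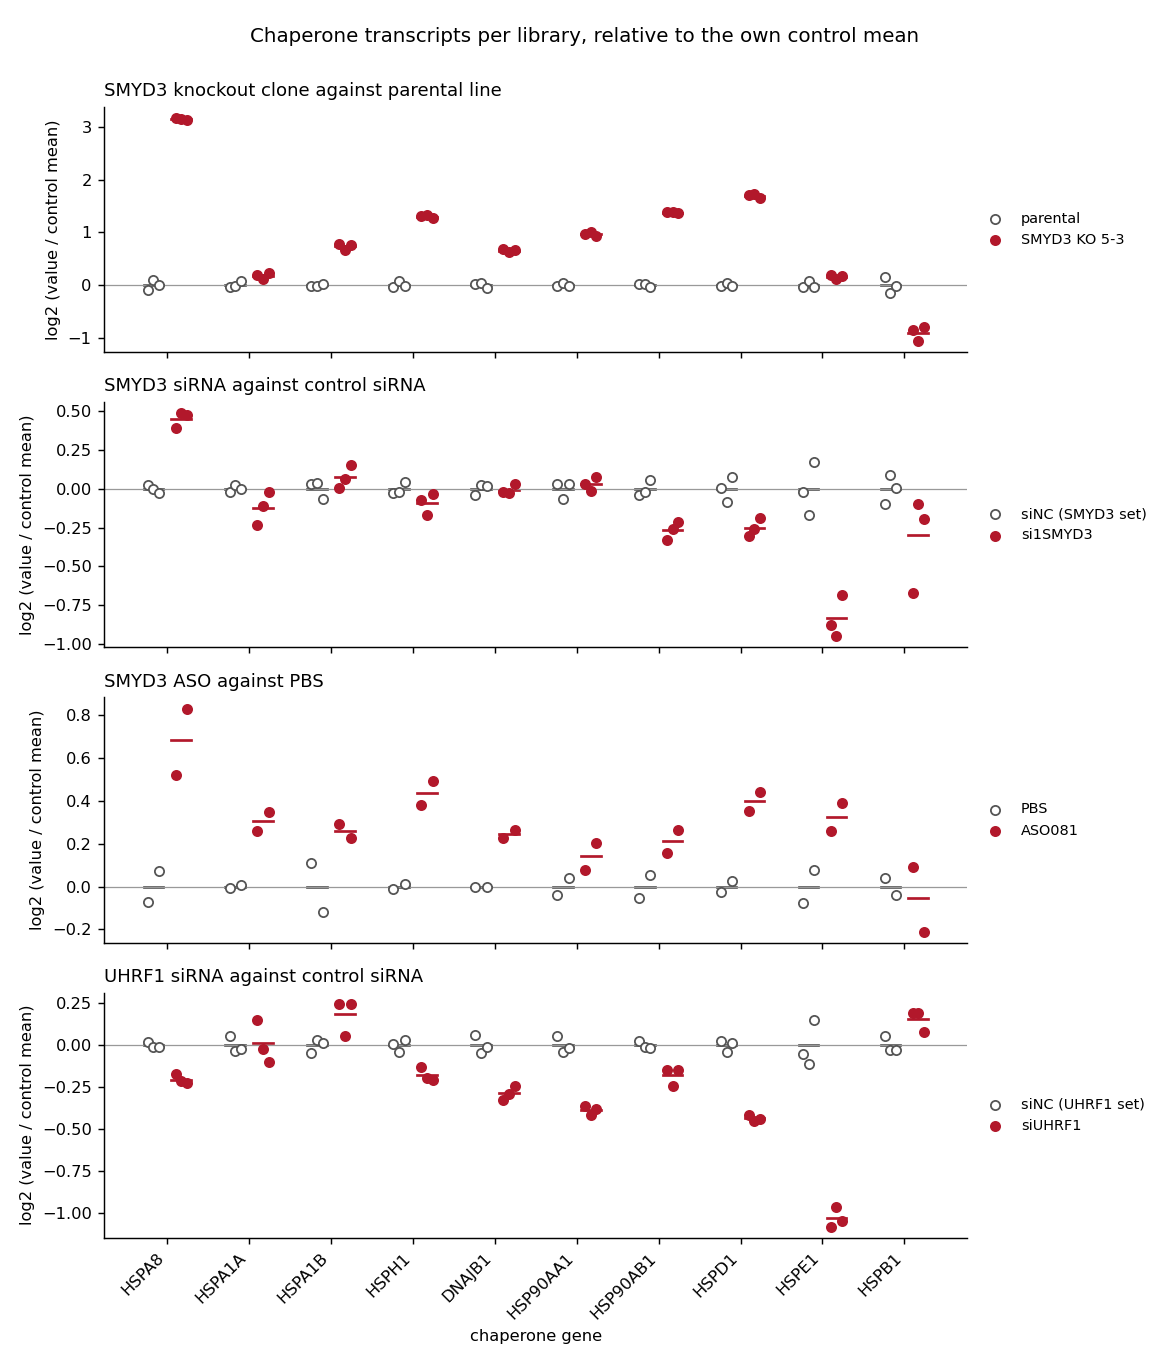
Each point is 1 library, plotted as log2 of its value over the mean of its own control group, with control libraries open and treated libraries filled, a bar at the group mean, and a separate vertical scale in each of the 4 panels. HSPA8 stands at 3.15 in the knockout panel, HSPB1 is the one gene below 0 there at -0.90, and HSPE1 is the lowest gene of both siRNA panels.

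HSP90AA1 and HSP90AB1 encode the cytosolic HSP90 proteins, the former regarded as the inducible and the latter as the constitutive form. HSP90AA1 (chr14:102080738-102139699, minus strand, 11 exons) held 49302, 51273 and 49527 normalized counts in parental and 98191, 100917 and 95729 in clone libraries, at a ratio of means of 1.96. HSP90AB1 (chr6:44246166-44253888, plus strand, 14 exons) held 46621, 47071 and 45105 in parental and 120135, 120153 and 119027 in clone libraries, at a ratio of 2.59. HSP90AB1 reads per HSP90AA1 read were 0.925 ± 0.018 (SD, n = 3) in parental and 1.22 ± 0.03 in clone libraries. With si1SMYD3, HSP90AA1 libraries overlapped their controls at 1356, 1312 and 1393 CPM against 1352, 1267 and 1355. HSP90AB1 libraries did not, at 909, 954 and 986 CPM against 1113, 1129 and 1187, and their log2 difference was -0.27 ± 0.09 (SE). That call was lost when any 1 of 5 of the 6 libraries was left out.

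With ASO081, HSP90AA1 held 2769.7 and 3024 CPM against 2554 and 2703 CPM in PBS, which was not called except with the replicate block (adjusted p = 0.00336, edgeR) or without ASO081 replicate 1, and HSP90AB1 held 2454 and 2645 CPM against 2120.0 and 2286. The HSP90AB1 call, at a log2 difference of 0.21 ± 0.07 (SE), was lost without ASO081 replicate 2 or without PBS replicate 1. With siUHRF1 both were lower in every library. HSP90AA1 held 1769, 1702 and 1742 CPM against 2361, 2211 and 2240.4, a log2 difference of -0.39 ± 0.05 (SE), and HSP90AB1 held 1773, 1657 and 1773 CPM against 1999.7, 1951 and 1936, at -0.18 ± 0.05 (SE). HSP90AB1 reads per HSP90AA1 read moved from 0.864 ± 0.018 (SD, n = 3) to 0.998 ± 0.022 with siUHRF1 and were lower with si1SMYD3, at 0.702 ± 0.029 against 0.864 ± 0.036.

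HSPD1 and HSPE1 encode the barrel and the lid of the mitochondrial chaperonin, HSP60 and HSP10. HSPD1 (chr2:197486584-197516737, minus strand, 15 exons) and HSPE1 (chr2:197500140-197503449, plus strand, 2 exons) lie head to head, with RefSeq starts 105 and 539 bases apart. HSPD1 held 13618.5, 14235 and 13560.5 normalized counts in parental and 45086, 45501 and 43487.5 in clone libraries, with a log2 difference of 1.69 ± 0.03 (SE). HSPE1 held 6323, 6786 and 6248 in parental and 7399.6, 6946 and 7234 in clone libraries, at 0.16 ± 0.04 (SE). Both genes were thus above parental in each clone library, HSPD1 by 3.24-fold in the means and HSPE1 by 1.11-fold. With upper quartile scaling and without mitochondrial genes HSPE1 stood at -0.12 and -0.21, while relative to the median of all genes it kept to 0.17 to 0.18.

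In the siRNA tables HSPE1 had the lowest log2 difference of the 10. It held 12.2, 10.9 and 13.9 CPM in siNC and 6.72, 6.38 and 7.68 in si1SMYD3 libraries, a difference of -0.83 ± 0.11 (SE), and HSPD1 held 200.0, 187 and 209.7 against 161, 166 and 175 CPM, at -0.25 ± 0.08. The HSPD1 call was lost without siNC replicate 3, which left 1 of the 10 genes called lower in that table. With siUHRF1, HSPE1 held 12.7, 13.7 and 13.0 CPM against 25.8, 24.8 and 29.8, at -1.03 ± 0.08 (SE), and HSPD1 held 444, 432 and 435 CPM against 601, 576 and 598, at -0.44 ± 0.05. No treated library of either gene reached its controls in these 2 tables. With ASO081 both were higher: HSPE1 held 50.6 and 55.3 CPM against 40.0 and 44.6, and HSPD1 held 629.7 and 670.0 CPM against 484 and 502.

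HSPD1 and HSPE1 did not keep a fixed proportion. HSPD1 reads per HSPE1 read were 2.14 ± 0.04 (SD, n = 3) in parental and 6.22 ± 0.29 in clone libraries, 16.2 ± 1.0 in siNC and 24.3 ± 1.7 in si1SMYD3 libraries, and 22.2 ± 1.8 in siNC and 33.4 ± 1.8 in siUHRF1 libraries. In the ASO table the proportion was 11.7 ± 0.6 (SD, n = 2) in PBS and 12.3 ± 0.2 in ASO081 libraries. The ratio also differed between the control groups of the tables, which were made separately, so that table and culture cannot be told apart. HSPE1 is hard to count: in GENCODE 29 its exons share 281 bases with HSPD1 on the opposite strand, 14.2% of its exon bases, and 11.7% of its 50-base windows occur in 10 other genes. Lines of 26 HSPE1 pseudogenes held reads equal to 5.15% to 9.52% of those of HSPE1 in the SMYD3 siRNA table and to 0.968% to 2.48% in the ASO and UHRF1 tables, and the knockout table had 0 such lines. Whether the authors' counting used strand is not given in the sources used here.

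HSPB1 (chr7:76302673-76304295, plus strand, 2 exons) encodes HSP27, a small heat shock protein that holds unfolding proteins without ATP. It was the one gene of the 10 that was lower in the knockout, with 10892, 8919 and 9782 normalized counts in parental and 5481, 4715 and 5644 in clone libraries, at a log2 difference of -0.90 ± 0.09 (SE). In the SMYD3 siRNA table it held 419, 478 and 449 CPM in siNC and 282, 419.8 and 391 in si1SMYD3 libraries. The first si1SMYD3 library was well below the other two, and the difference of -0.30 ± 0.12 (SE) was not called, but it was called without si1SMYD3 replicate 2, with DESeq2, with upper quartile scaling, with no filter on low values and with the replicate block (adjusted p = 0.00891, edgeR). ASO081 libraries held 227 and 185 CPM around the PBS values of 219 and 207, and HSPB1 was not called. Without ASO081 replicate 1 it was called lower, at -0.21 on the log2 scale, in a fit where 1 ASO081 library is left and is assumed to vary like the PBS pair. With siUHRF1 HSPB1 was higher, at 166, 166 and 153 CPM against 150.5, 142 and 142, a log2 difference of 0.16 ± 0.05 (SE). HSPB1 reads per HSP90AB1 read were 0.213 ± 0.022 (SD, n = 3) in parental and 0.0441 ± 0.0043 in clone libraries, and 0.0739 ± 0.0012 in siNC and 0.0932 ± 0.0067 in siUHRF1 libraries.

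Counted over the 10 genes at an adjusted p under 0.05, all of which passed the filter on low values, 9 were called higher and 1 lower in the knockout (limma), beside 42.1% and 42.5% of all 16950 genes tested. With si1SMYD3 1 was higher and 3 were lower (edgeR), beside 24.2% and 24.4% of 18982 genes. With ASO081 8 were higher and 0 lower (edgeR), beside 11.3% and 10.3% of 18233 genes, and 0 were lower also at an unadjusted p under 0.05 and with DESeq2. With siUHRF1 2 were higher and 7 lower (edgeR), beside 32.0% and 32.7% of 18349 genes. The 2 groups did not overlap in 10 of the 10 genes in the knockout, 6 with si1SMYD3, 9 with ASO081 and 9 with siUHRF1, beside 85.8%, 56.8%, 61.7% and 68.1% of all genes. Because the genes were selected on these contrasts, nothing is read from those counts. Their median log2 difference was 0.85 in the knockout, -0.11 with si1SMYD3, 0.28 with ASO081 and -0.19 with siUHRF1, while the median of all genes lay between -0.02 and -0.0043.

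The 10 genes together took a larger share of the library in the clone. They held 0.665% ± 0.008 (SD, n = 3) of non-mitochondrial reads in parental and 1.25% ± 0.01 in clone libraries. The share was 0.505% ± 0.014 in siNC and 0.446% ± 0.011 in si1SMYD3 libraries, 0.716% ± 0.020 (SD, n = 2) in PBS and 0.822% ± 0.044 in ASO081 libraries, and 0.745% ± 0.018 in siNC and 0.593% ± 0.008 in siUHRF1 libraries. In each comparison the 2 groups were apart. The makeup of the set moved as well: HSPA8 held 5.74% of the reads of the 10 genes in parental cells and 21.2% in the clone, 14.5% and 20.2% in siNC and si1SMYD3, and 11.6% and 15.4% in PBS and ASO081. With siUHRF1 the share was 24.4% against 23.6%, a small difference in which the 2 groups also did not overlap. HSP90AA1 and HSP90AB1 together stayed the largest part, between 52.0% and 69.0% in every group.

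The balance between constitutive and inducible HSP70 followed. HSPA8 reads per read of HSPA1A and HSPA1B combined, a ratio that does not depend on how reads are split within the pair, were 0.343 ± 0.024 (SD, n = 3) in parental cells and 2.35 ± 0.11 in the clone. The ratio was 1.87 ± 0.04 in siNC and 2.60 ± 0.10 in si1SMYD3 libraries, and 3.24 ± 0.37 (SD, n = 2) in PBS and 4.26 ± 0.59 in ASO081 libraries. In all 3 SMYD3 depletions no treated library overlapped its controls. With siUHRF1 the ratio was lower, at 7.99 ± 0.38 against 9.68 in siNC.

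**Figure D2:**
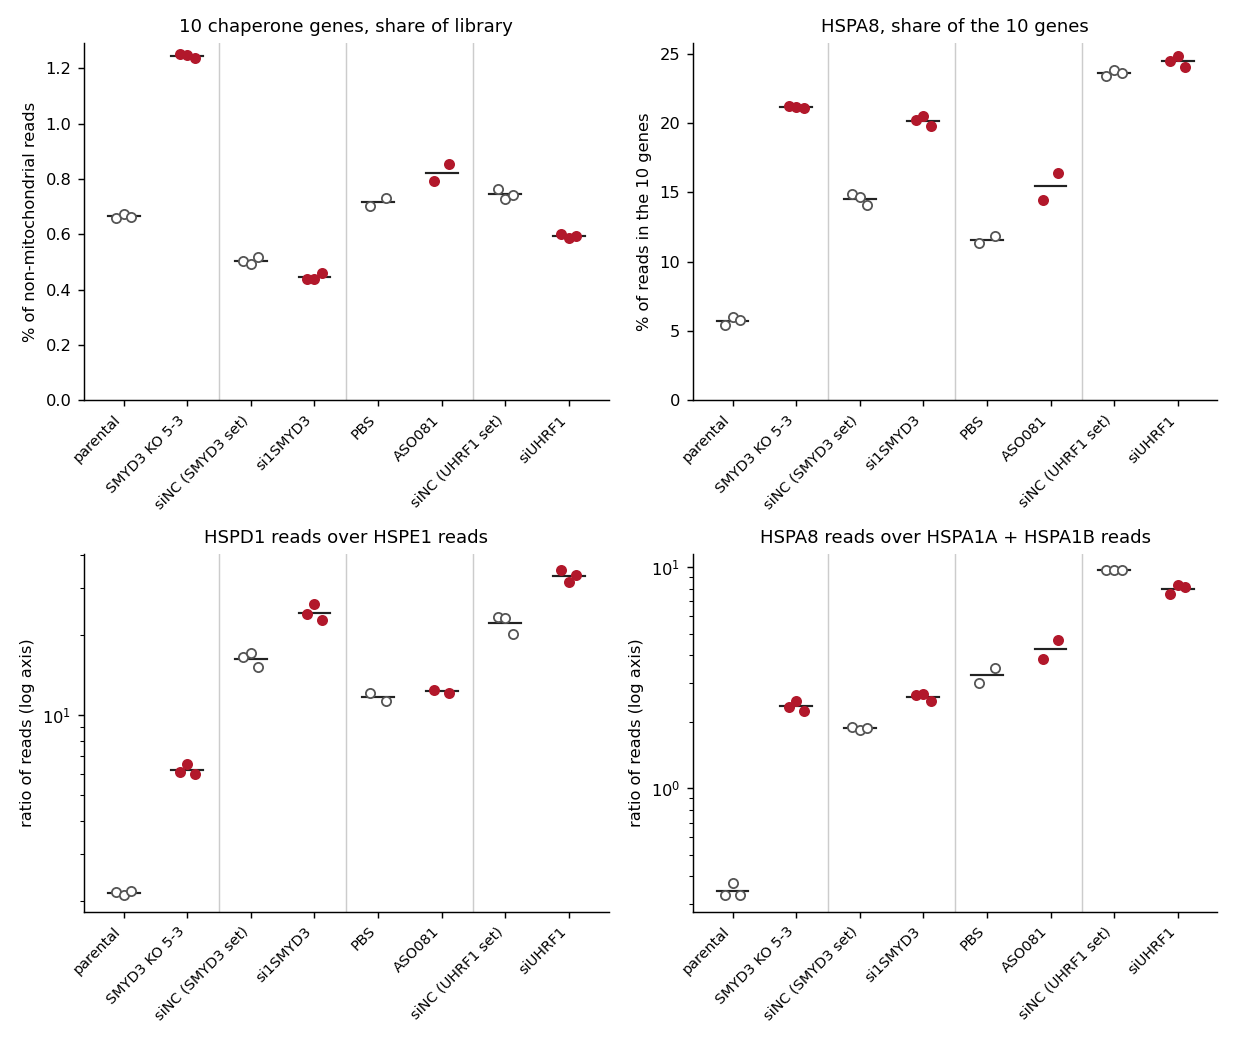
Each point is 1 library of the group named below it (open for control, filled for treated, bar at the mean), with the share of non-mitochondrial reads and the HSPA8 share on linear axes and the 2 ratios of reads on log axes. The 10 genes reach 1.25% of reads in the clone against 0.665% in parental cells, HSPA8 exceeds its controls as a share of the 10 in each comparison, by the least with siUHRF1 (24.4% against 23.6%), and HSPD1 per HSPE1 read ranges from 2.14 in parental to 33.4 in siUHRF1 libraries.

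To compare the genes with each other, levels were divided by the exon length of each gene, merged over transcripts. They are given as RPKM, the CPM per kilobase of that length. HSP90AB1 had the highest level in all 8 groups, from 318.7 RPKM with si1SMYD3 to 1204 in the clone. HSPA8 was the eighth of the 10 in parental cells at 62.9 ± 3.9 RPKM (SD, n = 3), above DNAJB1 at 27.5 and HSPH1 at 18.6. Without the division by length it ranked 5 of the 10 there. In the clone HSPA8 was the third at 548 ± 9 RPKM, where it overlapped HSP90AA1 at 561 ± 17. In the control groups of the other tables HSPA8 stood at 133 RPKM in siNC, 167 in PBS and 353 in the UHRF1 siNC libraries, so the parental level was the lowest of the 4 controls. Parental HSPA1A, at 245 RPKM, was in contrast well above the 46.2 to 71.0 RPKM of the other control groups.

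The lowest gene per length was HSPH1 in parental, PBS and ASO081 libraries, DNAJB1 in the clone and HSPE1 in the 4 siRNA table groups. Without the division by length it was DNAJB1 in parental and HSPE1 in PBS libraries. HSPE1 held 99.6 ± 4.5 RPKM in parental libraries, overlapping HSPD1 at 99.2 ± 2.6, and only 6.23 ± 0.74 in siNC, 23.2 ± 1.7 in PBS and 14.7 ± 1.4 in the UHRF1 siNC libraries. Other neighbours in the order whose libraries overlapped were HSPB1 and HSP90AA1 in siNC, HSPA1B and HSPA1A in si1SMYD3, HSPE1 and HSPH1 in ASO081, and, in siUHRF1 libraries, HSPB1 with HSPD1 and the run of DNAJB1, HSPA1B and HSPH1. In si1SMYD3 libraries HSP90AA1, HSPB1 and HSPA8 ran together, at 258, 223 and 182 RPKM. The order of the HSP90 pair depends on the division by length: HSP90AB1 exceeded HSP90AA1 by 1.48 to 1.63 times per length in the 4 control groups, but without it the ratio was 0.838 to 0.925. Levels set across tables carry the difference between separately made and separately normalized tables, which cannot be told apart from differences between the cultures.

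**Figure D3:**
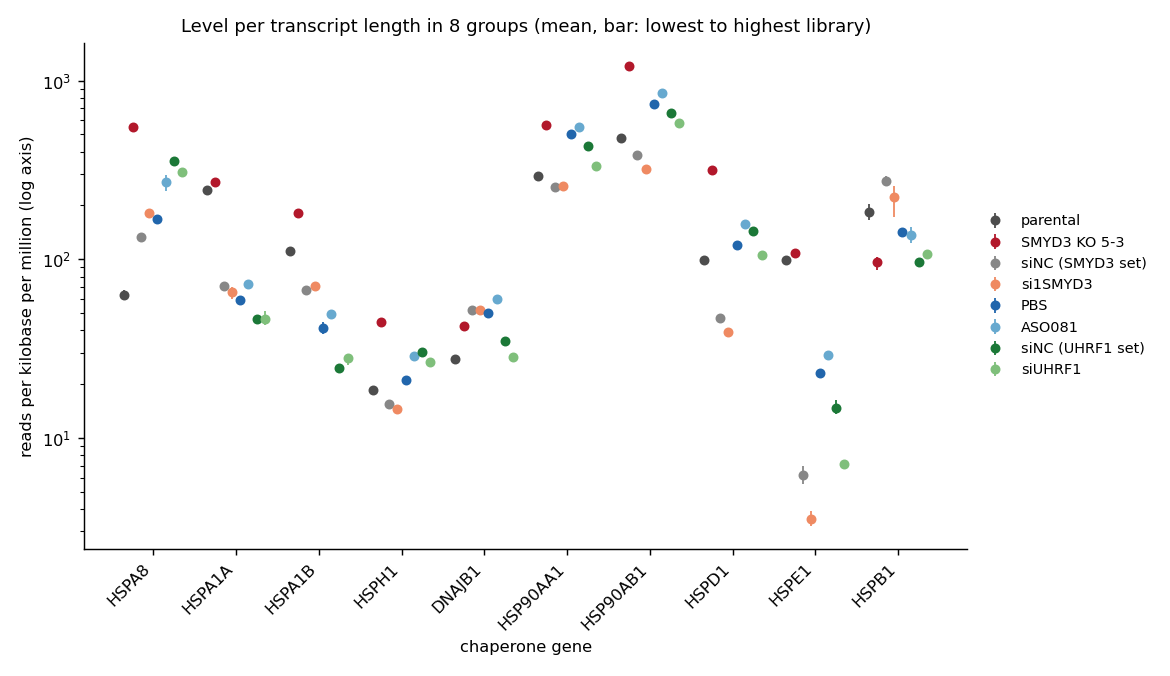
Mean level of each gene in the 8 groups in RPKM on a log axis, with a bar from the lowest to the highest library. HSP90AB1 is the top gene in each group, and HSPE1 spans from 3.50 in si1SMYD3 to 109 in clone libraries.

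Over the 22 libraries, each expressed as log2(CPM + 1) minus its own control mean, each gene was set against the median of the other 9 by Pearson correlation, as a description. HSPD1 was the closest at 0.989, followed by HSPH1 at 0.978, DNAJB1 at 0.957, HSP90AB1 at 0.956, HSP90AA1 at 0.937, HSPA8 at 0.929 and HSPA1B at 0.858. HSPA1A at 0.544 and HSPE1 at 0.520 followed the rest least among those with a positive value, and HSPB1 ran opposite at -0.846. Among 9725 other genes with a mean of 5 CPM or more in every table, the 6 most like the median of the 10 were WDR43 at 0.995, ACOT7 at 0.994, and CCT3, CCDC86, NCL and SRPRB at 0.992. CCT3 is a subunit of the cytosolic chaperonin TRiC and NCL is nucleolin. These points share tables and control means, and the 3 clone libraries lie farthest from 0, so the values describe mainly how a gene stands in the clone.

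The other genes of the chaperone network, 91 genes in 9 lists, were counted in the same fits over all genes. The lists were chosen with earlier results of these data known, so their counts are a description. In the knockout 58 of 84 tested genes rose and 15 fell (limma, adjusted p under 0.05), 69.0% and 17.9% beside 42.1% and 42.5% of all genes. With upper quartile scaling (edgeR, recovered reads) 46 rose and 27 fell, beside 31.6% and 53.5% of 17038 genes. Without mitochondrial genes, with each library rescaled to its remaining reads (limma), 39 rose and 32 fell, beside 28.4% and 56.9% of 17025. HSP90 paralogs and co-chaperones had 13 of 16 higher and 1 lower: FKBP4, an HSP90-binding immunophilin, rose by 1.94 ± 0.04 (log2, SE), STIP1, which links HSP70 to HSP90, by 1.39 ± 0.03, and TTC4 by 1.02 ± 0.05. With upper quartile scaling 12 were higher and 3 lower, and without mitochondrial genes 10 were higher and 3 lower. TRiC and prefoldin, which fold actin and tubulin, had 11 of 14 higher and 2 lower, among the higher CCT7 at 1.80 ± 0.03, CCT4 at 1.71 ± 0.03 and CCT6A at 1.04 ± 0.03. The counts were 8 and 4 with upper quartile scaling and 8 and 6 without mitochondrial genes. J-domain genes had 11 of 17 higher and 4 lower, with DNAJA1 at 1.65 ± 0.03, DNAJA3 at 1.39 ± 0.05 and DNAJB9 at 1.12 ± 0.07. That balance moved with the setting, with 8 higher and 7 lower with upper quartile scaling and 6 higher and 8 lower without mitochondrial genes.

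Mitochondrial folding partners had 7 of 8 higher in the knockout, with GRPEL1, the exchange factor of mitochondrial HSP70, at 1.24 ± 0.05 and the proteases YME1L1 at 1.21 ± 0.04 and LONP1 at 1.00 ± 0.06. That list had 7 higher and 1 lower with upper quartile scaling, and 5 higher and 1 lower without mitochondrial genes. Of the HSP70 exchange factors and partners 7 of 10 were higher, BAG1 at 1.65 ± 0.05 and BAG3 at 0.56 ± 0.04 among them, but 4 were higher and 3 lower with upper quartile scaling, and 3 higher and 4 lower without mitochondrial genes. The other HSP70 and HSP110 genes split, 7 of 10 higher and 2 lower: HYOU1 of the endoplasmic reticulum rose by 1.79 ± 0.03, while HSPA2 stood at -2.63 ± 0.06 and HSPA12A at -1.44 ± 0.07. In that list 6 were higher and 2 lower with upper quartile scaling and also without mitochondrial genes. The genes listed as small heat shock proteins, other than HSPB1, had 1 higher and 3 lower of 4. HSPB8 stood at 1.92 ± 0.07 against HSPB6 at -1.88 ± 0.36 and HSPB9 at -1.24 ± 0.18. Among the HSF regulators HSF4 was lower by a log2 difference of -3.19 ± 0.10 and HSF2 by -0.38 ± 0.06. HSF1, the main heat shock factor, was called higher at 0.20 ± 0.05, but stood at -0.08 with upper quartile scaling in edgeR. In the setting without mitochondrial genes, which also rescaled each library, HSF1 was called lower at -0.17.

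With si1SMYD3 the network split near evenly: 25 of 83 genes rose and 26 fell (edgeR), 30.1% and 31.3% beside 24.2% and 24.4% of all genes. The higher count was 15 without siNC replicate 3, and 16 without siNC replicate 2 or si1SMYD3 replicate 3. TRiC and prefoldin had 2 higher and 9 lower of 14, with the prefoldin subunits PFDN1 at -1.62 ± 0.08 (log2, SE), PFDN2 at -0.72 ± 0.09 and PFDN4 at -0.53 ± 0.09. Mitochondrial partners had 1 higher and 4 lower of 8, with CLPB at -0.48 ± 0.09 and CLPP at -0.46 ± 0.10 below and YME1L1 at 0.56 ± 0.08 above. HSP90 paralogs and co-chaperones had 5 higher and 5 lower of 16. HSP90B1, the HSP90 of the endoplasmic reticulum, rose by 1.11 ± 0.10 and the immunophilin FKBP5 by 0.97 ± 0.11, while FKBP8 stood at -0.37 ± 0.09. Other HSP70 and HSP110 genes had 5 of 10 higher and 1 lower, with HYOU1 at 0.36 ± 0.09 and HSPA4L at 0.28 ± 0.10, and exchange factors had the same count, with SIL1 at 0.85 ± 0.08, BAG1 at 0.82 ± 0.08, BAG4 at 0.62 ± 0.10 and BAG3 at 0.26 ± 0.09. J-domain genes had 6 higher and 4 lower of 17, DNAJB4 at 0.75 ± 0.08 and DNAJB9 at 0.67 ± 0.09 against DNAJB2 at -0.53 ± 0.08. Of the genes listed as small heat shock proteins, HSPB8 rose by 0.32 ± 0.11, and HSPB11 at -0.85 ± 0.09 and HSPB9 at -0.49 ± 0.10 were lower. HSF1 at -0.06 ± 0.11 and HSF2 at 0.00 ± 0.08 were not called.

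With ASO081, 33 of 84 genes of the network rose and 2 fell (edgeR), 39.3% and 2.38% beside 11.3% and 10.3% of all genes. The higher count was 16 without PBS replicate 1, 21 without ASO081 replicate 2 and 44 with the replicate block. J-domain genes had 7 of 17 higher, led by DNAJA1 at 0.68 ± 0.06 (log2, SE), DNAJB11 at 0.37 ± 0.05 and DNAJB9 at 0.29 ± 0.09. TRiC and prefoldin had 7 of 14 higher, with CCT6A at 0.33 ± 0.06, CCT2 at 0.24 ± 0.06 and TCP1 at 0.23 ± 0.07. Co-chaperones of HSP90 had 5 of 16 higher, with CHORDC1 at 0.33 ± 0.06, AHSA1, which stimulates its ATP hydrolysis, at 0.30 ± 0.06 and CACYBP at 0.25 ± 0.06. Exchange factors had 5 of 10 higher, with BAG1 at 0.53 ± 0.08, BAG2 at 0.52 ± 0.07, ST13 at 0.20 ± 0.05 and BAG3 at 0.18 ± 0.06. HSPA5, the HSP70 of the endoplasmic reticulum, rose by 0.33 ± 0.06, HSPA14 by 0.32 ± 0.08 and the mitochondrial HSPA9 by 0.26 ± 0.06. GRPEL1 at 0.27 ± 0.06 and TIMM44 at 0.23 ± 0.07 were the 2 mitochondrial partners called of 8, and the collagen chaperone SERPINH1 rose by 0.40 ± 0.06. HSPB9 had the largest difference of the network at 1.66 ± 0.12, from 4.07 to 12.9 CPM, and HSPB11 rose by 0.18 ± 0.06. The 2 genes that fell were HSPA12A at -0.24 ± 0.08 and DNAJC5 at -0.17 ± 0.06, named after their values were seen. That count was 0 with DESeq2, 0 to 1 with 1 library left out, 4 with upper quartile scaling and 7 with the replicate block. HSF1 at 0.05 ± 0.06 and HSF2 at 0.06 ± 0.06 were not called.

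With siUHRF1, 19 of 83 genes of the network rose and 44 fell (edgeR), 22.9% and 53.0% beside 32.0% and 32.7% of all genes. HSP90 paralogs and co-chaperones had 1 higher and 11 lower of 16, with FKBP5 at -2.21 ± 0.08 (log2, SE), CACYBP at -0.93 ± 0.05 and AHSA1 at -0.90 ± 0.05. TRiC and prefoldin also had 1 higher and 11 lower, of 14, with VBP1 at -1.26 ± 0.06 and PFDN5 at -0.46 ± 0.05. Other HSP70 and HSP110 genes had 1 higher and 6 lower of 10, with HSPA12A at -1.58 ± 0.10, HSPA4L at -1.34 ± 0.08 and HSPA14 at -0.92 ± 0.06. J-domain genes had 8 higher and 6 lower of 17: DNAJB2 rose by 0.84 ± 0.05, DNAJB4 by 0.66 ± 0.06 and DNAJA1 by 0.55 ± 0.05. Exchange factors had 4 higher and 4 lower of 10, with BAG2 at -1.21 ± 0.07 and HSPBP1 at -0.57 ± 0.06 against BAG6 at 0.56 ± 0.05 and BAG3 at 0.27 ± 0.05. Of the mitochondrial partners GRPEL1 stood at -0.79 ± 0.07 and CLPX at 0.46 ± 0.06. Of the genes listed as small heat shock proteins, HSPB9 stood at -1.48 ± 0.13, HSPB11 at -0.94 ± 0.06 and HSPB8 at 0.53 ± 0.06. HSF1 was called lower at -0.18 ± 0.05 together with HSBP1, which binds HSF1, at -0.65 ± 0.05, and HSF2 at -0.01 ± 0.08 was not called.

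**Figure D4:**
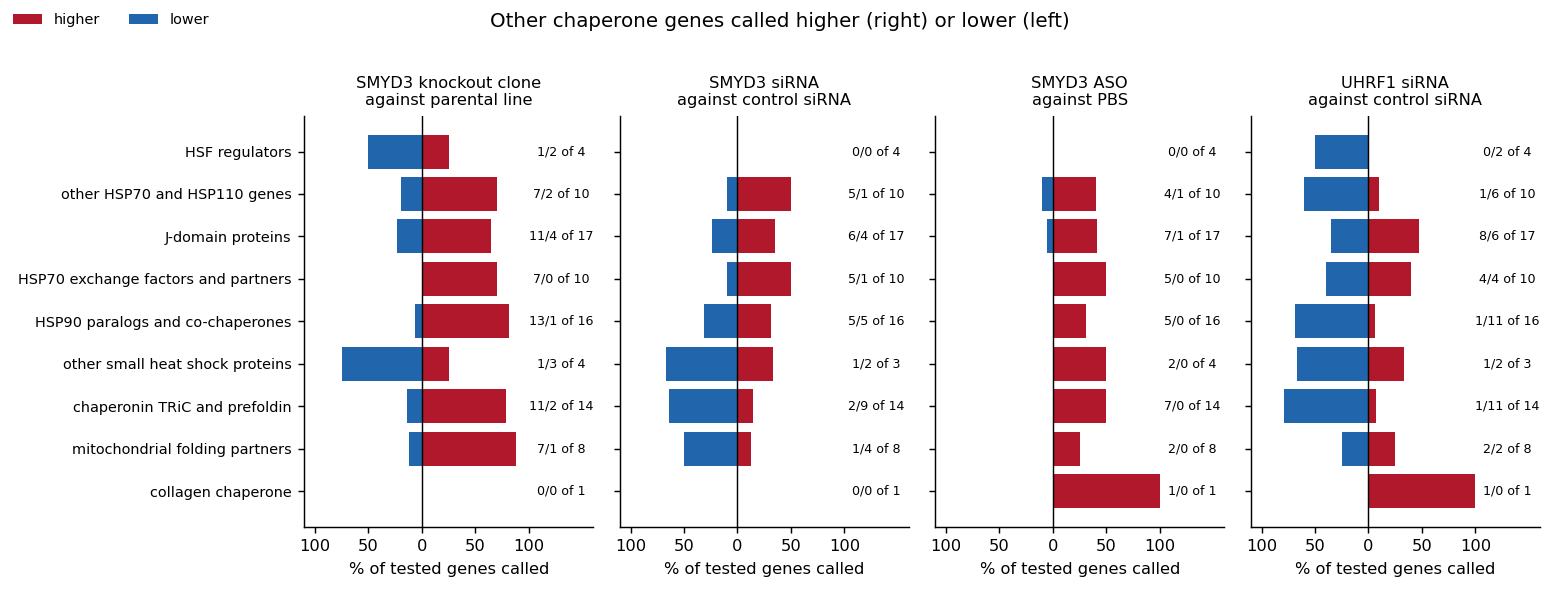
For each list of chaperone genes beyond the 10, bars give the percent of tested genes called higher (right) and lower (left) at an adjusted p under 0.05 in the 4 comparisons, and the figures at the right of each panel give higher and lower of the number tested. HSP90 co-chaperones stand at 13 higher and 1 lower of 16 in the knockout and at 1 higher and 11 lower with siUHRF1.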

How the data were processed

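RNA was measured in 22 libraries of HN-6 cells in 8 groups, taken from the labels. Per the submitters' processing notes, the processing named hg38, bcl2fastq and Bowtie; the sources used here do not give their versions and roles, the counting tool, its use of strand or the annotation. Per the labels' protocols, libraries were poly(A)-selected and stranded. Raw counts for each gene were deposited for the siRNA and ASO comparisons. For the knockout the authors deposited a signal, read counts scaled by a single factor in each library, from which whole reads came back for 100% of values within 0.01. The knockout table has 17421 lines. In that of the SMYD3 siRNA, 23588 lines lack a symbol and hold 0.849% to 0.917% of its reads. The ASO and UHRF1 tables hold 0 mitochondrial reads. Depth was 24783605 to 47702859 reads in the knockout table, 32441991 to 54121262 in the SMYD3 siRNA table, 30792923 to 32045158 in the ASO table and 57588142 to 62921144 in the UHRF1 table.

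Each table was fitted alone over all genes. The knockout signal was tested with limma 3.58.1 (trend, robust) on log2(value + 1), for genes at 10 or more in at least 3 libraries, since it is not raw counts. The counts were tested with edgeR 4.0.16 (filterByExpr, TMM, quasi-likelihood). Tests were two-sided, with Benjamini-Hochberg adjustment over all genes and a threshold of 0.05, in R 4.3.3, and the fits were checked on simulated data. Displayed CPM use TMM scaling, and RPKM divide by merged exon length, taken from the deposited tables for ASO081 and siUHRF1 and from GENCODE 29 for the other 2 tables. The study calls its replicates biological; p-values measure the spread between these libraries. Promoter letters came from RefSeq windows.

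The 10 genes, the 9 lists and the tests were chosen with earlier results of these data known. The text names, from each list, up to 3 called genes with the largest change per comparison and at most 20 per comparison over all lists, HSF1, HSF2 and BAG3 always, and the 6 genes most like the 10. Of the lists of markers, leukocyte genes summed to 2.71 to 16.8 CPM and endothelial genes to 1.10 to 23.8 CPM over all groups; squamous genes summed to 832 CPM or more, and fibroblast sums were 15.8 to 578 CPM. Alternatives were other scalings, filters, pseudocounts of 0.5 and 10, DESeq2 1.42.0, edgeR on the recovered reads, a replicate block, HSPA1A and HSPA1B summed, levels not divided by length, no mitochondrial genes and each library left out. For the knockout, upper quartile scaling was fitted with edgeR and its filter on the recovered reads. The knockout setting without mitochondrial genes replaced the deposited scaling by the total of the remaining recovered reads in each library.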

Additional observations from a re-analysis of the deposited data

Results flagged for a closer look

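For 5 of the 10 chaperones, the treated libraries of the SMYD3 siRNA table all lay below the mean of their controls, while those of the knockout clone and of ASO081 all lay above the mean of theirs. The difference between the comparisons was not tested, and the tables differ in culture, control and processing, so these cannot be told apart. HSPD1 differed by 1.95 on the log2 scale between the knockout and the siRNA, and by -0.65 between the siRNA and the ASO. HSP90AB1 differed by 1.64 and -0.48 in the same order. HSPH1 differed by 1.39 and -0.53. HSPE1 differed by 0.99 and -1.16. HSPA1A differed by 0.30 and -0.43, and its knockout value turns negative under 2 of the other settings, as does that of HSPE1. In the siRNA table HSPH1 and HSPA1A were not called against their controls.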

How the results depend on the processing

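Of 458 values of single chaperones under other settings, 436 kept their side of the threshold, 10 lost a call, 8 gained one and 4 reversed. The genes were selected on these contrasts, so a kept call is no independent support. A change of direction was counted as reversed only where the gene was called in the main fit or under the other setting. HSP90AA1 with si1SMYD3, which was not called, therefore counts as kept. It stood at 0.03 in the main fit and -0.0042 with upper quartile factors. The 4 reversed values belong to the knockout: HSPA1A stood at -0.10 with upper quartile factors and -0.19 without mitochondrial genes, and HSPE1 at -0.12 and -0.21. Both settings start from the recovered reads and change the scaling of the libraries. The upper quartile setting also changes the test and the filter, from limma to edgeR. Both settings lower the median of all genes, and under each of them 3 of the 10 chaperones were lower instead of 1. The lower count of the wider network rose from 15 to 27 and 32. For ASO081, the lower count of the network, 2, was 0 with DESeq2 and 4 with upper quartile factors, and 0 to 1 with 1 library left out; its higher count, 33, was then 16 to 35, and the chaperones called lower 0 to 1. For the SMYD3 siRNA, leaving out 1 library gave 1 to 3 chaperones lower and 15 to 26 network genes higher. Why these values moved was not tested.

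Same-numbered libraries deviated together with correlations of -0.12 to 0.44, below the level that would pair them in at least 1 pair of each comparison with 3 pairs, and the ASO comparison has 2 pairs. With the replicate block, the ASO network counts were 44 higher and 7 lower, and 9 chaperones were higher instead of 8. HSP90AA1 with ASO081 (adjusted p = 0.00336, edgeR) and HSPB1 with si1SMYD3 (adjusted p = 0.00891, edgeR) gained a call, and the block ended no call of a chaperone. Leaving out 1 library of the ASO comparison leaves 1 in that group, assumed to vary like the other group. Among the 10 genes HSPE1 rested on the fewest reads, 235 to 775 a library in the SMYD3 siRNA table.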
